A study of Drosophila melanogaster with 8 samples.

Results

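Actin is the protein of the thin filaments of muscle and of the filaments that shape, move and divide every other cell. Drosophila melanogaster carries a small family of closely related actin genes. Act5C and Act42A are the cytoplasmic actins, used in cells of most kinds, and Act57B, Act79B, Act87E and Act88F are the muscle actins. Act88F is known for the indirect flight muscle, Act79B for muscles of the adult thorax and legs, and Act57B and Act87E for larval and adult body muscle. These 6 genes were taken by name, as all of their annotated transcripts, and are 6 of the 14292 genes and 13 of the 31089 transcripts in the deposited table.

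The libraries hold long-read cDNA of wild-type Oregon R flies, reared at 25 °C with 12 h of day light, in which the ends of quick-to-court (qtc) transcripts had been amplified. There is 1 library each of female eyes, male eyes, female heads, male heads, female salivary glands, male salivary glands, ovaries and testes. Collection at day 5 to 7 and dissection are described in the labels' protocols for eyes, heads and testes; whether that age holds for ovaries and salivary glands, and how these were dissected, the sources used here do not say. With 1 library a group, no value has a replicate, and every interval given covers counting error only.

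A library held 88471 (testes) to 152222 (female salivary glands) estimated counts, so that 3 counts, the limit that a count of 0 allows, correspond to 19.7 to 33.9 counts per 1000000 (CPM). Genes named as rRNA took 23.86% of female and 21.977% of male eyes. They took 8.19% of female and 12.543% of male heads, 7.887% and 7.831% of female and male salivary glands, 1.939% of ovaries and 5.97% of testes. CPM and shares of a library include these counts. Some libraries held markers of other tissues. Eggshell genes took 8.34% of the counts of female eyes and 15.9% of those of ovaries, against 0.0572% or less in each of the other 6 libraries, and digestive enzyme genes took 1.09% of female eyes and 0.00238% of male eyes. Testis genes took 0.36% of female heads, nearly all of it Mst98Ca (457.9 counts), against 0.000738% of male heads and 0.65% of testes. Larval serum protein and related fat body genes took 17.8% of female and 17.3% of male salivary glands, next to 2.06% and 1.65% for the glue genes that mark the larval gland. The 12 photoreceptor markers matched were all above 0 in the eye and head libraries. They took 4.96% of female eyes, 17.9% of male eyes, 8.57% of female heads and 9.07% of male heads. Female eyes thus held a smaller photoreceptor share than either head library.

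The 6 genes lie apart from each other in BDGP6. Act5C (FBgn0000042) is on chromosome X from 5900861 to 5905399, plus strand, with 5 transcripts. Act42A (FBgn0000043) is on 2R from 6013910 to 6015689, minus strand, with 1 transcript, and Act57B (FBgn0000044) on 2R from 20944021 to 20946431, plus strand, with 1. Act79B (FBgn0000045) is on 3L from 21985210 to 21987190, plus strand, with 2 transcripts. Act87E (FBgn0000046), with 3 transcripts, and Act88F (FBgn0000047), with 1, are on the plus strand of 3R, from 13425983 to 13428375 and from 15439969 to 15442177. All 13 transcripts carry a coding sequence of 1131 bases including the stop, so the genes differ in annotated length only in their untranslated ends.

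The mean over all sequenced reads, before filtering, was 524 to 647.7 bases by library, shorter than the actin coding sequence. The mean length of the reads that were counted is not known. The authors' assignment divided reads between transcripts. Of the 77 actin transcript values above 0, 13 were whole within 0.01. None of the 38 values of Act5C and none of the 8 of Act57B was whole, against 5 of 6 for Act42A and 3 of 3 for Act88F. Act57B has 1 transcript, so its fractional values are no division between transcripts of its own. Which gene a shared read came from cannot be read from the table, and counts of these closely related genes are therefore uncertain. An exonic stretch of 96 bases of Act57B also holds snoRNA:660, and 60 bases of Act87E face lncRNA:CR45591 on the opposite strand; neither of those was analysed here.

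Actin transcripts together took a larger share of the head libraries than of any other. They made up 3.5% of the counts of female heads (Wilson interval 3.41% to 3.6%) and 2.13% of male heads (2.05% to 2.2%). The other 6 libraries held 0.137% (female eyes) to 0.855% (male salivary glands). In these bulk samples, fewer cells of a type and less RNA per cell cannot be told apart.

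**Figure D1:**
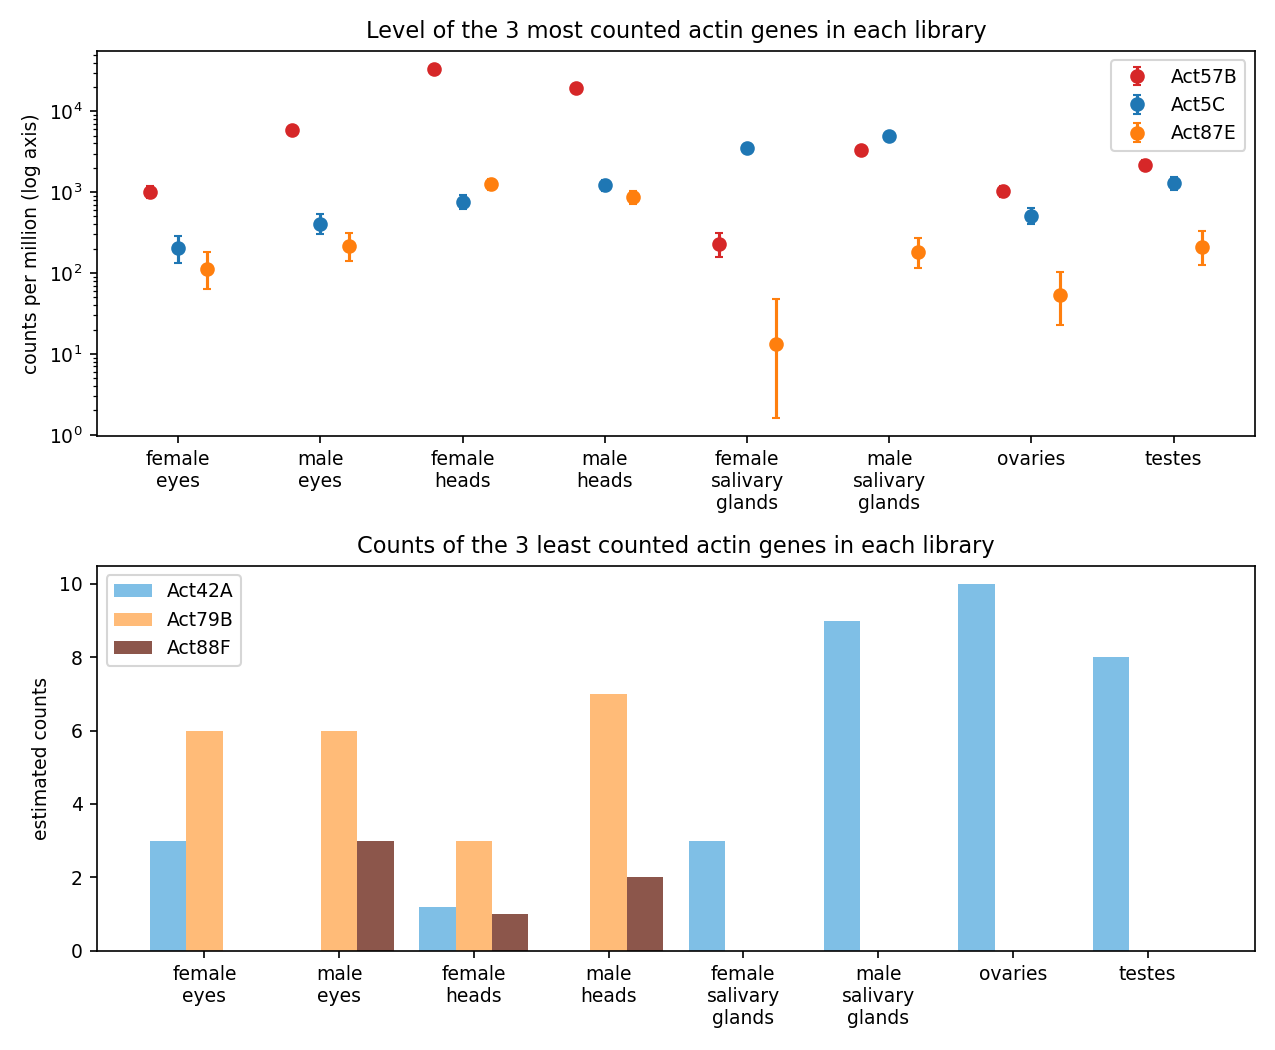
Level of the actin genes in the 8 libraries. The upper panel gives CPM on a log axis for Act57B, Act5C and Act87E, with exact Poisson intervals, and the lower panel gives estimated counts of the 3 rare genes. Act57B stands highest in heads, Act5C in salivary glands, and no rare gene passes 10 counts.

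Act5C, the main cytoplasmic actin, was highest in the salivary gland libraries. Its level was 3509.5 CPM in female and 4986.1 CPM in male salivary glands. It was 1292.9 CPM in testes, 1214.0 CPM in male heads, 752.2 CPM in female heads and 508.1 CPM in ovaries, and 402.7 and 201.3 CPM in male and female eyes. Both gland libraries stood above all others, and of the 1119 genes with 80 or more counts over the 8 libraries, 13.5% did the same. In the order of levels, testes and male heads had overlapping intervals (1066.8 to 1552.7 and 1035.6 to 1414.4 CPM), as did female heads with ovaries and ovaries with male eyes.

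Act42A, the other cytoplasmic actin, was rare. It had 10.0 counts in ovaries, 9.0 in male salivary glands, 8.0 in testes and 3.0 in both female eyes and female salivary glands. Female heads had 1.2 counts, and male eyes and male heads were at 0, which allows up to 23.8 and 22.1 CPM. The 3 libraries with 8.0 counts or more had overlapping intervals, from 30.9 to 178.3 CPM over all 3.

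Act57B was the most counted actin in 6 of the 8 libraries. Its level was 32982.9 CPM in female heads and 19115.2 CPM in male heads, where it ranked 5 and 9 among all genes. It was 5784.2 CPM in male eyes, 3311.5 CPM in male salivary glands, 2172.6 CPM in testes, 1029.0 CPM in ovaries and 997.7 CPM in female eyes, and 225.9 CPM in female salivary glands. In this order only ovaries and female eyes had overlapping intervals. The span from the lowest to the highest library was wider for Act57B than for Act5C, whose lowest level was 201.3 CPM.

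Act87E, a second body muscle actin, followed the same order at the top and the bottom. It was at 1253.7 CPM in female heads and 859.8 CPM in male heads, at 180.6 to 214.4 CPM in male eyes, testes and male salivary glands, at 111.6 CPM in female eyes and 52.9 CPM in ovaries, and at 13.2 CPM (2.0 counts) in female salivary glands. Both head libraries stood above the other 6 for Act57B and for Act87E, as they did for 10.6% of the 1119 genes. The head libraries themselves did not overlap for Act57B, and for Act87E their intervals did not overlap either (1071.1 to 1458.5 and 710.7 to 1030.8 CPM).

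Act79B and Act88F were seen only in eye and head libraries, at very low counts. Act79B had 6.0 counts in each eye library, 3.0 in female heads and 7.0 in male heads. Act88F had 3.0 counts in male eyes, 1.0 in female heads, 2.0 in male heads and none in female eyes. Both were at 0 in salivary glands, ovaries and testes, where up to 33.9 CPM would not have been detectable. The flight muscle genes fln and TpnC4 were at 0 in all 8 libraries.

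Set per length, the order of the genes within a library stayed the same at the top. In deposited TPM, Act57B was at 17730.0 in female heads and Act5C at 283.9, and in female salivary glands Act57B was at 107.9 and Act5C at 1270.7.

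**Figure D2:**
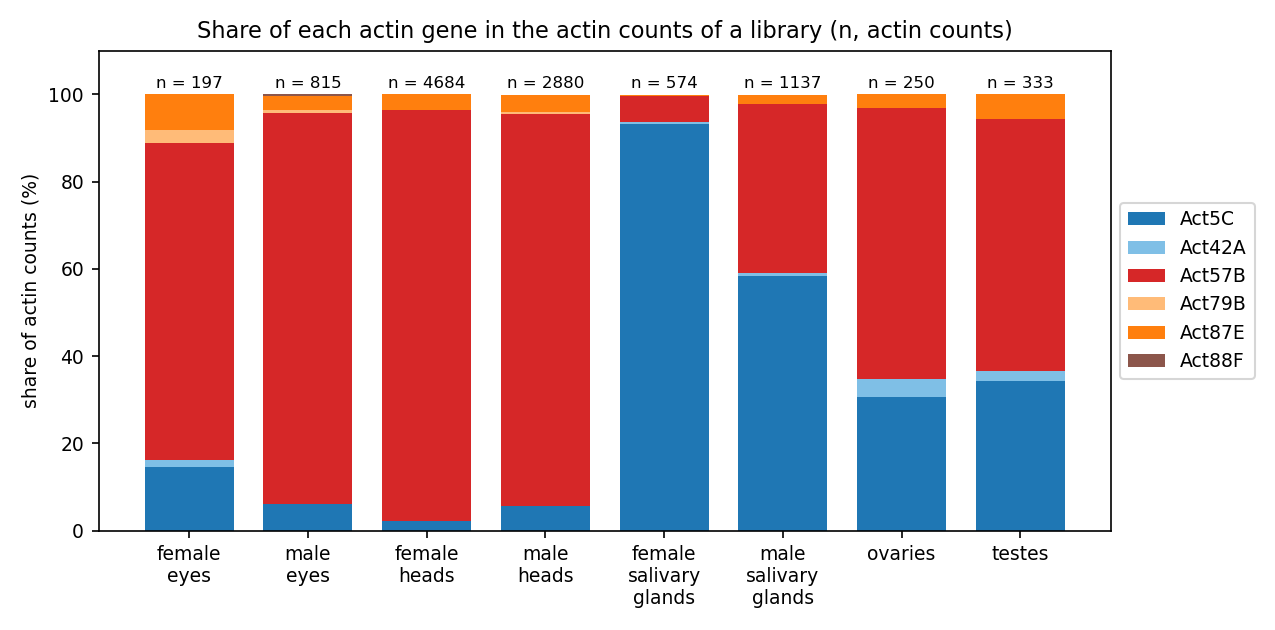
Share of each of the 6 actin genes in the actin counts of a library, in percent, with the actin counts of the library above each bar. Act57B takes 89.4% to 94.2% in the heads of both sexes and male eyes, while Act5C takes 93.1% in female and 58.3% in male salivary glands.

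The make-up of actin counts differed by tissue. Act57B took 94.2% of the actin counts of female heads (93.5% to 94.8%), 89.9% of male heads, 89.4% of male eyes and 72.6% of female eyes. It took 62.1% of ovaries, 57.7% of testes, 38.7% of male salivary glands and 5.99% of female salivary glands (4.33% to 8.24%). Act5C ran in the reverse order of libraries, with 93.1% of female salivary glands (90.8% to 94.9%), 58.3% of male salivary glands, 34.3% of testes, 30.7% of ovaries, 14.7% of female eyes, 6.22% of male eyes, 5.71% of male heads and 2.15% of female heads.

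The remaining 4 genes shared what was left. Act87E took 8.13% in female eyes, 5.63% in testes and 0.349% to 4.04% elsewhere. Act42A took 3.99% in ovaries, 2.4% in testes and 1.52% or less in the somatic libraries. Act79B reached 3.04% in female eyes, and Act88F 0.368% in male eyes.

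Both gonads had a mixed make-up. The cytoplasmic pair took 34.7% of the actin counts of ovaries (29.1% to 40.8%) and 36.7% of testes (31.7% to 42.0%), so that muscle actins made up the larger part of both. The sarcomere list, 24 matched genes of the contractile apparatus other than actin, took 0.0813% of ovaries and 0.256% of testes, against 1.59% and 1.05% of female and male heads; its part in the gonad values was not tested. The mean cytoplasmic share was 35.7% ± 1.44 (SD, n = 2) in gonads and 30.5% ± 37.5 (SD, n = 6) in somatic libraries, a difference of 5.18 points that was far smaller than the spread (exact two-sided permutation p = 0.893, smallest possible 0.0357). Without female heads the difference was -0.489 points. Over transcripts with whole counts alone it was 76.9 points (exact permutation p = 0.0357), on values that hold nothing of Act5C or Act57B. In each gonad 1 value was whole, that of Act42A, so its actin counts are all cytoplasmic by this selection. That p-value therefore decides nothing about the gonads.

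No actin gene's share differed between females and males in 1 direction over eyes, heads and salivary glands beyond the spread. For Act5C the female share less the male share was 8.44 points for eyes, -3.56 for heads and 34.8 for salivary glands. Its mean was 13.2 ± 19.6 points (SD over 3 tissues; exact two-sided permutation of signs, p = 0.5, and p = 1.0 after adjustment over the 6 genes). For Act57B it was -16.7, 4.23 and -32.8 points (mean -15.1 ± 18.5, exact permutation p = 0.5, adjusted p = 1.0). With 3 tissues this test cannot go below 0.25. Heads ran against the other tissues for both genes.

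**Figure D3:**
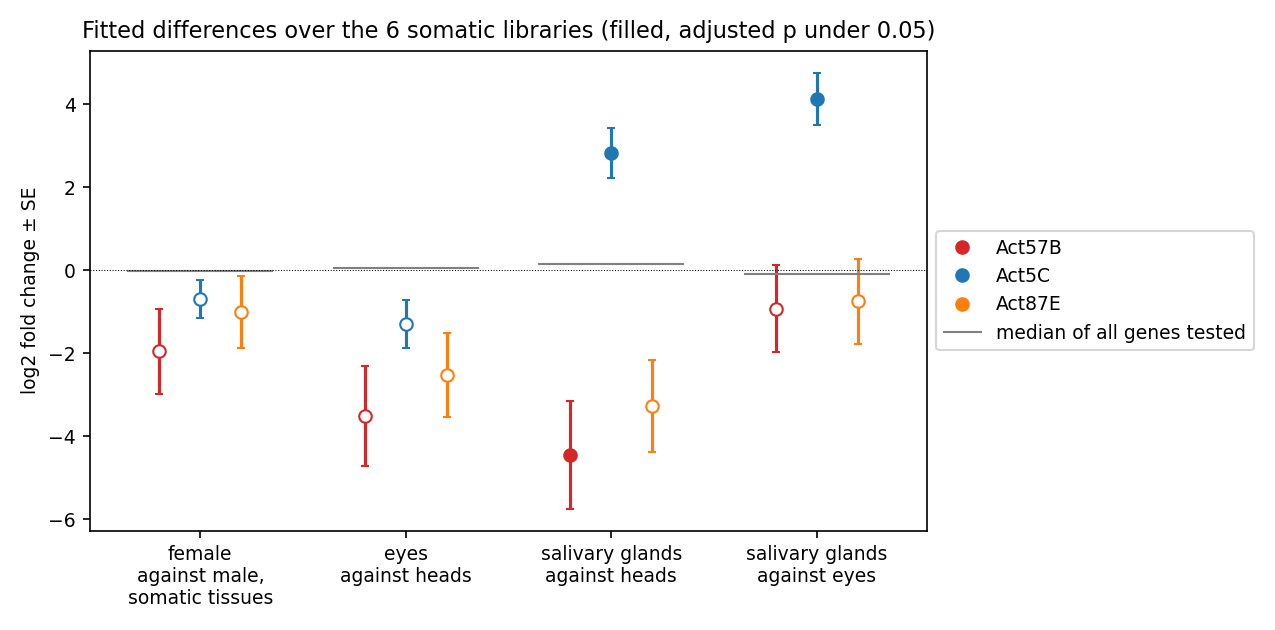
Log2 fold changes with standard errors for Act57B, Act5C and Act87E in 4 comparisons over the 6 somatic libraries; filled points have an adjusted p under 0.05 (edgeR) and grey lines mark the median of all genes tested. Act5C is filled in both salivary gland comparisons and Act57B in salivary glands against heads.

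The comparison of tissues over both sexes used edgeR's quasi-likelihood test on 1316 genes, with tissue and sex as terms, so that its error is the deviation of each library from a shared sex difference (2 residual degrees of freedom). Act5C, Act57B and Act87E were tested. Act42A, Act79B and Act88F had too few counts. The stage of the salivary glands is not given, and their libraries held larval glue and serum protein genes. Tissue and stage can therefore not be told apart in any comparison of salivary glands with heads or eyes. Act5C was higher in salivary glands than in heads by 2.82 ± 0.60 on the log2 scale (SE, adjusted p = 0.02257, edgeR), and Act57B was lower by -4.45 ± 1.30 (adjusted p = 0.04585). Of all genes tested, 26.9% were called in this comparison, 13.6% higher and 13.3% lower. Act87E was at -3.27 ± 1.10 and missed the threshold (edgeR adjusted p = 0.06612).

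These calls leaned on single libraries. The call of Act5C was lost without female heads (2.55, edgeR adjusted p = 0.252) and without male heads (2.24, adjusted p = 0.2904), which leave heads with 1 library that is assumed to vary like the other groups. That of Act57B was lost without female heads (-2.48, adjusted p = 0.1627), without female salivary glands (-2.87, adjusted p = 0.1095) and without male eyes (-4.12, adjusted p = 0.07144). It was -6.72 without male heads and -5.92 without male salivary glands. Act87E passed the threshold under 9 of 13 alternatives, among them DESeq2 (-3.83, adjusted p = 0.005714).

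Against eyes, Act5C was again higher in salivary glands, by 4.12 ± 0.64 (edgeR adjusted p = 0.01657), where 25.2% of genes were called, 13.4% higher and 11.7% lower. Its adjusted p stayed at 0.024 or below in all 13 alternatives, and its value at 3.37 to 4.31. Act57B (-0.93 ± 1.05, edgeR adjusted p = 0.53) and Act87E (-0.75 ± 1.03, adjusted p = 0.6032) did not pass, and without female salivary glands both turned positive, at 0.08 and 0.38.

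Between eyes and heads no actin gene passed the test. Act57B was at -3.52 ± 1.21 (edgeR adjusted p = 0.3134), Act87E at -2.52 ± 1.01 (adjusted p = 0.3644) and Act5C at -1.31 ± 0.57 (adjusted p = 0.3809). Of the 1316 genes, edgeR called 0 (0.0%), with 175 at an unadjusted p under 0.05, while limma-voom called 0 and DESeq2 33. Act57B was among those called by DESeq2 (-3.64, adjusted p = 0.04572), and without filter on low counts (-3.74, edgeR adjusted p = 0.005297) or without male heads (-5.24, adjusted p = 0.01099); without female heads it was -1.0 (adjusted p = 1.0). The eggshell and digestive enzyme counts of female eyes, and the higher photoreceptor share of male eyes, sit within this comparison, and their part in it was not tested.

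Females against males over the 3 somatic tissues gave no call for an actin gene either. Act57B was at -1.95 ± 1.03, Act87E at -1.01 ± 0.87 and Act5C at -0.69 ± 0.46 (edgeR adjusted p = 0.9606 for each). Of all genes, edgeR called 0 (0.0%), with 34 at an unadjusted p under 0.05, limma-voom called 0 and DESeq2 2.

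Within a tissue the sexes differed in size and direction from one actin to the next, with 1 library on each side and therefore no test. A gene is called here when its CPM differed at least 2-fold with 10 counts or more in the higher library. In salivary glands Act57B was 14.7-fold higher in the male library (exact binomial interval 10.5 to 21.7), with 440.5 counts against 34.4 in the female library. Act87E was 13.7-fold higher in the male library (3.41 to 119.9), on 24.0 against 2.0 counts. Act5C was 1.42-fold higher in the male library (1.27 to 1.6), below 2-fold. Of all genes with enough counts, 18.9% were called lower and 14.2% higher in the female library.

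Muscle genes other than actin followed in salivary glands. All 3 sarcomere genes with enough counts were at least 2-fold higher in the male library. They were wupA, the troponin I gene, 13-fold (6.55 to 32.1), Mlp60A, a muscle LIM protein gene, 7.08-fold (3.22 to 16.8), and Tm1, a tropomyosin gene, 2.89-fold (1.88 to 4.52). The summed sarcomere list took 0.182% of the male and 0.0462% of the female library, with 11 and 13 of its 24 genes at 0, among them Mhc, the muscle myosin heavy chain, in both. The part of muscle RNA in the actin values was not tested. In the other direction, Arpc1, a subunit of the Arp2/3 complex that branches actin filaments, was 2.33-fold higher in the female library (1.66 to 3.39). The gene beta-Spec, a spectrin gene, had 55.5 counts in the female and 2.0 in the male library (ratio 24.2, interval 6.34 to 203.4).

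In eyes Act57B was 5.8-fold higher in the male library (4.85 to 7.01), with 728.6 against 143.4 counts. Act5C was 2.0-fold higher in the male library (1.25 to 3.28) and Act87E 1.92-fold (1.0 to 3.82). Lower calls in the female library made up 28.5% of all genes with enough counts, and higher calls 37.0%. Of 10 sarcomere genes with enough counts, 5 were called lower in female eyes and 0 higher. The summed list ran the other way, at 0.524% of female and 0.437% of male eyes, led by Mlp60A, which was 1.72-fold higher in the female library (1.5 to 1.98). Of 12 photoreceptor markers with enough counts, 11 were called lower in female eyes and 0 higher. Female eyes are the library with 8.34% eggshell counts, and fat body genes took 1.13% of male and 0.026% of female eyes. The part of these genes in the ratios was not tested.

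In heads the direction turned for the muscle actins. Act57B was 1.73-fold higher in the female library (1.64 to 1.81) and Act87E 1.46-fold (1.15 to 1.88), both below 2-fold. Act5C was 1.61-fold higher in the male library (1.24 to 2.07). Calls made up 16.1% of genes in the female direction and 18.2% in the male. Mlp60A was 1.95-fold higher in the female library (1.74 to 2.19) and Mlc1, a myosin light chain gene, 2.45-fold (1.36 to 4.59). Of 14 sarcomere genes with enough counts, 3 were called higher and 1 lower in female heads. The part of the testis genes counted in female heads was not tested.

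All 3 actins with a call between the gonads were lower in ovaries than in testes. Act5C was 2.54-fold higher in testes (1.88 to 3.42), Act57B 2.11-fold (1.69 to 2.61) and Act87E 4.01-fold (1.7 to 10.7). Act42A was not apart, at 66.2 CPM in ovaries and 90.5 CPM in testes (ratio 0.731, interval 0.26 to 2.13). Calls lower in ovaries made up 39.3% of genes, and calls higher 43.9%, so a 2-fold difference between these libraries is common. Among partners of actin, Actn, the actin crosslinker alpha-actinin, was 10.9-fold higher in ovaries (6.58 to 20). The gene tsr, the cofilin that severs filaments, had 34.4 counts in ovaries and none in testes. Its ratio was 6.72 with testes set at 3 counts, and the lower end of its exact binomial interval was 5.11. In testes jar, myosin VI, was 7.3-fold higher (3.98 to 14.7), and rhea, the talin gene, had 48.3 counts against 1.0 in ovaries (ratio 82.5, interval 14 to 3306.1). Of 3 sarcomere genes with enough counts, 2 were called higher in testes, Mlp60A among them at 5.34-fold (3.81 to 7.51).

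Of 5 turnover and nucleation genes tested, 3 were higher in salivary glands than in heads (edgeR adjusted p 0.02151 to 0.04106) and 0 lower, where 13.6% of all genes tested were called higher, with a median log2 fold change over the 5 of 2.47 against 0.14 over all genes. They were cib, which binds actin monomers (3.02 ± 0.62), Gel, which severs filaments (2.78 ± 0.67), and capt, a cyclase-associated protein that recycles monomers (2.47 ± 0.68). These 3 genes also passed against eyes, a comparison that shares the gland libraries and in which 13.4% of all genes were called higher, at 4.02 ± 0.65, 3.68 ± 0.71 and 2.43 ± 0.69. The list also holds tmod, which caps the slow-growing end of thin filaments; it had 10.6 and 16.5 counts in female and male heads, 1.0 and 4.0 in eyes and 0 in both glands, and missed the threshold against heads (edgeR adjusted p = 0.06225) and eyes (adjusted p = 0.2005). In the glands cib had 419.9 and 701.3 counts in females and males, against 79.1 and 132.6 in heads.

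Of 2 non-muscle myosin genes tested, sqh, the myosin II regulatory light chain, was higher in salivary glands, by 4.57 ± 1.10 against heads (edgeR adjusted p = 0.03068) and 5.05 ± 1.15 against eyes (adjusted p = 0.02977). The other, ninaC, a myosin of photoreceptors, had 11 to 35 counts in the eye and head libraries and 0 in both glands. It passed the count filter only through eye and head counts and could only come out lower, as it did in both comparisons. Of all genes tested, 13.6% were called higher and 13.3% lower against heads, and 13.4% and 11.7% against eyes. None of the 6 crosslinker genes tested passed in either gland comparison, where 26.9% of all genes were called against heads and 25.2% against eyes. Between eyes and heads and between the sexes, 0 of all 1316 genes were called, so no pathway list could have a call there.

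Of 12 sarcomere genes tested, 6 were lower in salivary glands than in heads and 0 higher, where 13.3% of all genes tested were called lower, with a median log2 fold change of -3.94, or -3.33 when the 3 genes at 0 in both glands are set at the bound of 3 counts per library. Mlc2, a myosin light chain gene, was lower by -3.00 ± 0.70 (edgeR adjusted p = 0.02844) and Mlp60A by -3.94 ± 1.11 (adjusted p = 0.04246). The titin-like gene sls had 38.3 and 45.0 counts in heads and 0 in both glands, and Mhc 7 and 15 counts in heads and 0 in both glands. Genes at 0 in both glands entered the test only through eye and head counts and could only come out lower. Both sls and Mhc are among these 3 genes and among the calls against heads and against eyes, so the counts of calls rest in part on the filter. wupA was at -3.65 ± 1.16 and missed the threshold (edgeR adjusted p = 0.05706). Against eyes, 4 of the 12 were lower and 0 higher, where 11.7% of all genes were called lower, with a median of -2.49, or -2.21 with the same bound, against -0.09 over all genes.

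Markers of other cell types differed in the same gland comparisons. All 6 fat body markers were called higher in salivary glands, with a median log2 fold change of 9.92 against heads and 6.07 against eyes. Of all genes tested, 13.6% were called higher against heads and 13.4% against eyes. All 11 photoreceptor markers tested were called lower, as were 13.3% of all genes against heads and 11.7% against eyes. Of the 12 matched, 8 were at 0 in each gland library. Photoreceptor markers passed the count filter through eye and head counts, and fat body markers mainly through gland counts. The direction of these calls was thus largely set by the filter. The fat body list took 17.3% to 17.8% of the glands and 0.026% to 1.13% of the eye and head libraries. The part of either cell type in the values of Act5C, Act57B and these lists was not tested.

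**Figure D4:**
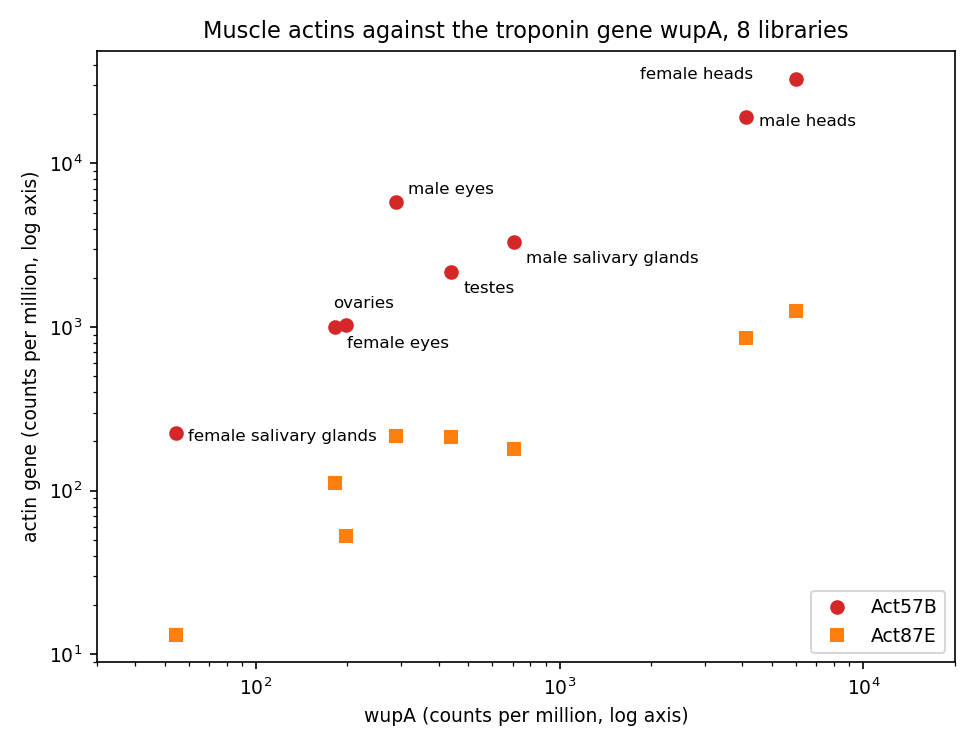
Level of Act57B (circles) and Act87E (squares) against wupA in the 8 libraries, in CPM on log axes. Points climb from female salivary glands to heads, and male eyes lie above the trend of the others for Act57B.

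Across the 8 libraries Act57B and Act87E were more like each other than like any other gene ranked. The Pearson correlation of log2(CPM + 10) between Act57B and Act87E was 0.976. Among the 1119 genes with 80 or more counts, the 5 most like Act57B were SmydA-7 (0.96), wupA (0.949), pros, a homeodomain transcription factor (0.939), stau, an RNA-binding protein (0.934), and CG5687 (0.92), and the same 5 genes led for Act87E, at 0.901 to 0.957. The 8 points share their libraries and depth with both genes of a pair. Reads may also have been divided between Act57B and Act87E, whose sequences were not compared here. The part of such reads in their correlation was not tested.

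Set per length, in deposited TPM, the ratio of Act57B to wupA was 2.39 to 3.46 in 7 libraries and 12.4 in male eyes. Since wupA is shown for its likeness to Act57B, a narrow ratio follows in part from that choice. The ratio of Act57B counts to those of the whole sarcomere list was wider, from 0.19 in female eyes and 0.489 in female salivary glands to 2.07 in female heads. Act57B counts were 8.94 times those of Act87E in female eyes and 10.2 to 27 times in the other 7 libraries. Over the same 8 libraries the TPM ratio of Act57B to Act5C ran from 0.0849 in female salivary glands to 62.5 in female heads.

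Act5C had a different set of neighbours. Its 5 most like genes were Spn43Aa (0.963), Spn42Dc (0.96), CNPYb (0.956), RpS29 (0.953) and Vha36-1 (0.952), and its correlation with Act57B was -0.13. All 5 were highest in both gland libraries. Spn43Aa and Spn42Dc are members of the serpin family of protease inhibitors, and RpS29 is a ribosomal protein gene. The other 3 actins had under 80 counts and were not ranked.

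**Figure D5:**
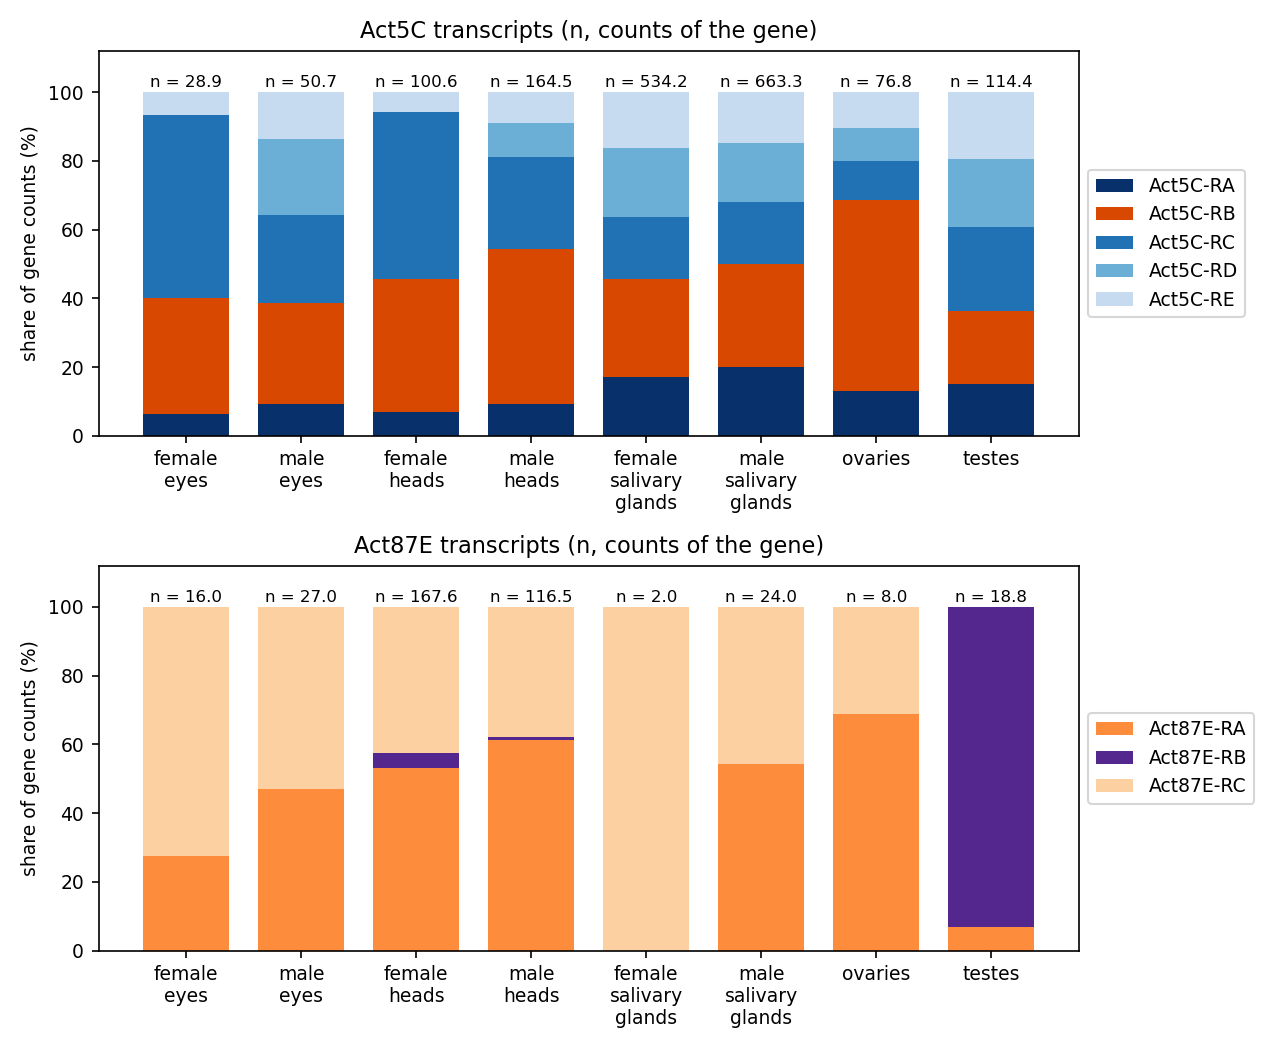
Share of each annotated transcript in the counts of Act5C (upper panel) and Act87E (lower panel), in percent, with the counts of the gene above each bar. Act5C-RB is largest in ovaries at 55.4%, and Act87E-RB takes 93.1% of the 18.8 counts in testes.

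The transcripts of Act5C differ at both ends and not in the protein. RA, RC, RD and RE share the first exon at 5900861 and end at 5904173, 5904788, 5904464 and 5905399, and RB starts at 5901982 and ends at 5905227. RB, the only one that starts at the downstream exon, took 55.4% of Act5C counts in ovaries (44.3% to 66.0%) and 21.1% in testes (14.6% to 29.5%). In the somatic libraries it took 28.5% (female salivary glands) to 45.2% (male heads). The intervals of the gonads did not overlap.

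Among the transcripts that share the first exon, RC had a higher and RD a lower share in the female library of eyes and of heads. RC took 53.2% of female eyes (35.7% to 69.9%, 15.4 counts) and 25.5% of male eyes (15.5% to 38.9%, 12.9 counts), with overlapping intervals. It took 48.7% of female heads (39.1% to 58.3%) and 26.6% of male heads (20.5% to 33.9%). RD was at 0 in female eyes and female heads and took 22.1% of male eyes and 9.92% of male heads. In salivary glands the sexes were close, with RC at 18% and 18.1% and RD at 20.1% and 17.1%. These transcripts are nested within each other apart from their 3′ ends, so the division of reads between them is an estimate.

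A test of transcript usage (diffSpliceDGE of edgeR) covered 245 genes. Act5C gave an adjusted p of 0.971 between the sexes, 0.998 between eyes and heads and 0.726 between salivary glands and heads. Of the 245 genes, 0 (0.0%) were called in each comparison, with 10, 17 and 21 at an unadjusted p under 0.05 and 0 called by the Simes combination. Over the sexes RD had the lowest unadjusted p of the Act5C transcripts, at 0.0695.

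In testes most Act87E counts were assigned to another first exon. RA and RC start at 13425983 and RB, a single exon, at 13426447. RB took 93.1% of the 18.8 counts in testes (73.0% to 98.5%), 4.3% in female heads and 1.08% in male heads, and 0 in the other 5 libraries. Ovaries, with 8.0 counts, had 68.9% RA and 31.1% RC. RB begins within the intron of RA and RC and covers all of their coding sequence, so only reads that reach its start or cross a splice tell it from them. In the tested libraries, RA and RC of Act87E gave adjusted p of 0.971, 0.998 and 0.947 (edgeR).

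Act79B counts were divided between RA and RB without a pattern that the depth allows to be read. All 6.0 counts of female eyes were RA, all 6.0 of male eyes and all 3.0 of female heads were RB, and male heads had 2.7 and 4.3.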

How the data were processed

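Long-read cDNA from 8 libraries was analysed. The authors deposited an estimated count and a TPM value per transcript; the TPM follow from the counts and the deposited length less 250.0 bases. A second deposited table gives counts of reads and total bases. The mean read length was computed here as total bases over total reads, before filtering. Per the submitters' processing notes, Minimap2, Salmon and edgeR were used with BDGP6; roles and versions are not given in the sources used here. Because gene-specific amplification preceded sequencing, levels describe amplified libraries. In a library, 34.93% to 48.35% of values above 0 were fractional (tolerance 0.01).

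Of 31089 transcript IDs, 31048 matched the BDGP6 annotation of release 115; the 41 others, with 0.094% to 0.535% of counts, were left out of gene sums. Counts were summed per gene and rounded. CPM used all estimated counts. Counts of the 6 somatic libraries were modelled in R 4.3.3 and edgeR 4.0.16 (TMM, filterByExpr minimum 10, robust quasi-likelihood F test, tissue plus sex), with Benjamini-Hochberg adjustment and a threshold of 0.05. limma 3.58.1 and DESeq2 1.42.0 were alternatives. Single-library comparisons are ratios of CPM with exact binomial (Clopper-Pearson) intervals, and shares carry Wilson intervals, all at 95%. Reads were amplified without molecular identifiers, so intervals and floors of 3 counts cover counting error only. The labels name no separate cultures, so a p-value reflects only how tissues and sexes vary, which may be technical. Scripts were tested on simulated data.

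The members, lists and tests were chosen with earlier results of these data known. All actin genes are named; from the lists, up to 5 genes of smallest p or largest fold (30 counts or more) a comparison, and for likeness the 5 highest correlations. Other genes named (capt, Mlp60A, sls, Mhc, ninaC and tmod in some comparisons, fln, TpnC4 and the leading markers) were chosen after their values were seen.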

Additional observations from a re-analysis of the deposited data

Results flagged for a closer look

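The female to male ratio of Act57B was 1.73 in heads and pointed the other way in eyes, at 0.172, and in salivary glands, at 0.0682. That of Act87E was 1.46 in heads and 0.0728 in salivary glands. Each ratio is of 1 library to 1 library, and its counting interval lies on 1 side of equality. The differences between tissues were not tested.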

How the results depend on the processing

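No paired analysis was possible because each group has 1 library and the labels give no replicate numbers to pair; the sexes were already compared within tissues, by the tissue term and by the sign permutation. Genes called between the sexes numbered 0, but 1 with DESeq2 size factors, 2 with DESeq2, 1 at a minimum count of 3, 9 without a filter, and 1 to 9 when 1 library was left out. Between eyes and heads these were 0, then 3, 33, 3 and 38, and 0 to 84. With 1 library left out, salivary glands against heads gave 188 to 640 calls (354 with all) and against eyes 188 to 517 (331 with all). Scaling moved the median of all genes: for salivary glands against heads it was 0.142 with TMM and -0.579 with library totals, and the calls split 179 higher and 175 lower against 105 and 270. Against eyes the split was 177 and 154, 124 and 178 with library totals, and 100 and 161 without qtc and rRNA-named genes. Act5C stayed higher and Act57B lower than heads under each scaling run.

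By TPM the cytoplasmic share of actin was 4.66% in male eyes, 1.54% in female heads, 4.11% in male heads, 52.6% in male salivary glands, 28.4% in ovaries and 30.9% in testes. From whole counts alone it was 33.3% in female eyes, 0.0% in male eyes and both heads, 60.0% and 45.0% in female and male salivary glands and 100.0% in both gonads. In each gonad Act42A held the only whole value, so that share was fixed by the selection. The gonad difference from whole counts alone was 76.9 points, against 5.18 over all values. The latter ran from -0.489 (without female heads) to 17.8 when 1 library was left out. The mean sex difference in Act87E share became -5.0 points with whole counts alone. By TPM, Act5C-RB took 23.1% and 24.2% of female and male salivary glands. With 1 library left out, salivary glands against eyes ran from -2.97 to 0.08 for Act57B and from -3.23 to 0.38 for Act87E. Beyond fewer values or samples, the cause was not tested.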
